A study of Homo sapiens with 12 samples.

Results

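The difference between a pair of ovarian cancer cell lines in their transcriptional response to BAY-850 was measured gene by gene. ATAD2, a chromatin protein of the AAA ATPase family, reads acetylated histones through its bromodomain, and BAY-850 is an inhibitor of that domain. RNA-seq libraries of PA-1 and SK-OV-3 cells kept for 48 h in 5 µM BAY-850 or in DMSO, the solvent, formed 4 groups of 3 biological replicates (PA-1 DMSO, PA-1 BAY-850, SK-OV-3 DMSO and SK-OV-3 BAY-850). PA-1 is an established line from an ovarian teratocarcinoma and SK-OV-3 an established line from an ovarian adenocarcinoma. PA-1 was grown in DMEM and SK-OV-3 in RPMI, both with serum, so the line and its medium cannot be told apart. All 12 libraries were fitted together with the line, the treatment and their interaction, and the interaction was tested in every gene that passed a filter on low counts, which was 16830 of the 26475 genes listed. The interaction is the log2 fold change of BAY-850 against DMSO in SK-OV-3 minus that in PA-1. A positive value is thus a response that was higher in SK-OV-3, and a gene was called when its p-value from edgeR's quasi-likelihood test, adjusted by Benjamini-Hochberg over all 16830 genes, was under 0.05.

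The libraries held between 34544505 and 51840233 expected counts. Between 17425 and 18414 genes had a count in 11 of the libraries, against 15629 in SK-OV-3 BAY-850 replicate 3, which also had the highest total. In the DMSO groups all 14 markers fixed for PA-1 had the higher mean in PA-1 and 11 of 13 markers fixed for SK-OV-3 had the higher mean in SK-OV-3. KRT8 was close between the DMSO groups, at 532 CPM in PA-1 and 599 CPM in SK-OV-3. With BAY-850 the order turned for ZFP42 (0.245 CPM in PA-1 and 0.42 CPM in SK-OV-3), for KRT8 (580 and 416 CPM) and for WFDC2 (0.437 and 1.32 CPM). LIN28A, an RNA-binding protein of pluripotent cells, averaged 756 CPM (TMM-scaled CPM, the counts of a gene relative to the whole library) in PA-1 DMSO and was at most 0.332 CPM in SK-OV-3. The pluripotency genes TDGF1, GDF3, ZFP42 and L1TD1 were near 0 also in PA-1, and the ovarian carcinoma markers WFDC2 and MUC16 were near 0 also in SK-OV-3. Of 8 markers of blood and vessel cells, PTPRC, CD3E and LYVE1 were at or near 0 in every library. The endothelial markers PECAM1 (22.9 to 26.2 CPM), CDH5 (8.42 to 12.5 CPM) and VWF (2.03 to 4.37 CPM) were present in all PA-1 libraries and CD68, a lysosomal protein of macrophages, in all SK-OV-3 libraries (28.4 to 39.9 CPM). At lower levels CD68 was also present in all PA-1 libraries (2.35 to 2.93 CPM) and PECAM1 in all SK-OV-3 libraries (2.51 to 3.75 CPM). The sum of the 8 ranged from 37.2 to 40.6 CPM in PA-1 DMSO, 40.2 to 44.7 CPM in PA-1 BAY-850, 32.1 to 33.0 CPM in SK-OV-3 DMSO and 41.7 to 43.0 CPM in SK-OV-3 BAY-850. The summed level of the PA-1 markers ranged from 1474 to 1676 CPM in PA-1 DMSO and from 1671 to 1774 CPM in PA-1 BAY-850, and from 36.7 to 41.4 CPM in SK-OV-3 DMSO and from 78.9 to 82.2 CPM in SK-OV-3 BAY-850, where the DNA methyltransferase DNMT3B averaged 70.6 CPM against 31.5 CPM in DMSO. That of the SK-OV-3 markers ranged from 4409 to 4707 CPM in SK-OV-3 DMSO and from 3285 to 3773 CPM in SK-OV-3 BAY-850, against 955 to 1010 and 1036 to 1090 CPM in the same order in PA-1. These sums moved with the treatment within each line, and their part in the results was not tested. In cultures measured as a whole, fewer cells in a state and less RNA per cell cannot be told apart.

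Several pathways that read out the state of a cell through a known factor are described here. Under low oxygen or blocked prolyl hydroxylation, the HIF factors are stabilised and induce glycolysis, angiogenic and lipid droplet genes through a short core motif. The integrated stress response raises the translation of ATF4, which induces amino acid synthesis, transport and tRNA charging genes. Type I interferon signalling, through STAT2 and IRF9 among others, induces antiviral genes that carry an interferon-stimulated response element. E2F factors drive the genes of DNA replication before S phase, and serum response factor drives the immediate early genes and actin cytoskeleton genes through the CArG box. ATAD2 is known as a chromatin-bound cofactor of E2F and hormone receptors and is found at newly replicated chromatin.

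Promoters of called genes from RefSeq are shown because each holds the motif of a factor known to act on genes of its list. Each is 250 bases before and 50 bases after the RefSeq start site in GRCh38.p14, read 5′ to 3′ on the gene's strand, with every match to the motif in capitals on either strand. They were taken from the list members with the smallest interaction p whose window holds the motif. The HIF core ACGTG is marked in ANKRD37 (chr4:185396591-185396890, plus strand) and ANGPTL4 (chr19:8363905-8364204, plus strand).
ANKRD37: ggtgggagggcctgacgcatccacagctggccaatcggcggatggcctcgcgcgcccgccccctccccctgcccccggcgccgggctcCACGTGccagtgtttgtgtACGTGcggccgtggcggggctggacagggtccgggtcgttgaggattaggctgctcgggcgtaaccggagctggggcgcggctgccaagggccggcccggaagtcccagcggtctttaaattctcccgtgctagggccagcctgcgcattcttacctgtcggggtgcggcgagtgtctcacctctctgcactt
ANGPTL4: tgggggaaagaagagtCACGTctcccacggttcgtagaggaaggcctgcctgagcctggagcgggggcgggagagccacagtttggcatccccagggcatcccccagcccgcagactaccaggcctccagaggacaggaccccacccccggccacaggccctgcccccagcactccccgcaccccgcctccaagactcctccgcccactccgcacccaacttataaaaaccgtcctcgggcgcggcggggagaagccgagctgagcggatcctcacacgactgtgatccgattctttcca
The interferon-stimulated response element, searched on both strands as a GAAA run followed by another after 2 bases, is marked in IFITM1 (chr11:313790-314089, plus strand) and in BST2 (chr19:17405581-17405880, minus strand), where the matches overlap.
IFITM1: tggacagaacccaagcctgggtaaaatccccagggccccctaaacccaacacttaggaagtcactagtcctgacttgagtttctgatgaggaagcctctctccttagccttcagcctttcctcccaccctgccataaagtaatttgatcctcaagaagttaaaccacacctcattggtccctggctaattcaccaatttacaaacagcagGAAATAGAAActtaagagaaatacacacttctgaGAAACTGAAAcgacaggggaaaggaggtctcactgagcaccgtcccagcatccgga
BST2: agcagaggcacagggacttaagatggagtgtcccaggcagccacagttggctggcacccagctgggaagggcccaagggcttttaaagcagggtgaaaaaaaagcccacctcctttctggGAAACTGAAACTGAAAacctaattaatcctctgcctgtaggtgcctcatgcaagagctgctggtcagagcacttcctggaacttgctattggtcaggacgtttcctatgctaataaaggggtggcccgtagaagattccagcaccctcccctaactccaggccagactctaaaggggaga
The E2F site TTTGGCGC is marked in POLE (chr12:132687293-132687592, minus strand) and MCM6 (chr2:135876394-135876693, minus strand).
POLE: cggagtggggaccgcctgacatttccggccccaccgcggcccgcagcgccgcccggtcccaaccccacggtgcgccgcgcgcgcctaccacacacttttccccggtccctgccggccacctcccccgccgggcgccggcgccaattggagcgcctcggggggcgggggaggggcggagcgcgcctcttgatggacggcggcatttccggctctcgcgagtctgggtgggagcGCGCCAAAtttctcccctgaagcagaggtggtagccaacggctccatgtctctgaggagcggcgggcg
MCM6: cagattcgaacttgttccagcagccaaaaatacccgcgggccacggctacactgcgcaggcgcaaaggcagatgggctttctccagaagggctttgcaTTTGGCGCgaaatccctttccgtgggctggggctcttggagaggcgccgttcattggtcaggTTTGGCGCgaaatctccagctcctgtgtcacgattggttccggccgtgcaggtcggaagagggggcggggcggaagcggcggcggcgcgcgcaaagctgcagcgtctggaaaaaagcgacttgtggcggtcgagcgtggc
The CArG box is marked in EGR1 (chr5:138465229-138465528, plus strand) and ACTG1 (chr17:81512750-81513049, minus strand).
EGR1: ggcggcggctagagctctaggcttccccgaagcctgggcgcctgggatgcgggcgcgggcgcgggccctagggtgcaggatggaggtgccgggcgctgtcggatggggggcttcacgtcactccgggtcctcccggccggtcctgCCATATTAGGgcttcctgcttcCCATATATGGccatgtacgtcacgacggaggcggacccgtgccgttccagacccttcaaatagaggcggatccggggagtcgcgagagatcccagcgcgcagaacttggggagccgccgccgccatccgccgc
ACTG1: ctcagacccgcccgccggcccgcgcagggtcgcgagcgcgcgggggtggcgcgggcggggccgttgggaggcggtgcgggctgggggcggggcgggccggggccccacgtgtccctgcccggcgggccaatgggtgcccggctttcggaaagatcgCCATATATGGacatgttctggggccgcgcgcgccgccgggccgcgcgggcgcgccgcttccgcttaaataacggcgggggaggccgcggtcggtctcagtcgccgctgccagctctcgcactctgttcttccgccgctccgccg

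A window was found for 12965 of the 16830 genes tested. The HIF core stood in 25.6% of them, the interferon element in 2.9%, the ATF4 site (TGATGNAA, on either strand) in 1.79%, the E2F site in 1.06% and the CArG box in 1.14%. The interferon element was present in 18 of the 30 windows of the interferon list, of which 15 belonged to the 24 called genes with a window. The HIF core was present in 8 of 21 windows of the glycolysis HIF targets and in 13 of 21 windows of the HIF targets outside glycolysis, in 8 of 12 genes with a negative interaction and in 4 of 5 genes with a positive one. The ATF4 site was present in 6 of 27 windows of the ATF4 list, in 2 of 17 genes with a positive interaction and in 4 of 9 genes that were not called. Among cytosolic aminoacyl-tRNA synthetases it was present in 6 of 13 windows. The E2F site was present in 8 of 39 windows of the DNA replication list. It stood in 8 of the 30 windows of called genes and in 0 of the 9 of genes not called, so most windows were of called genes. The CArG box was present in 8 of 18 windows of the SRF and actin list and in 1 of 17 windows (5.88%) of the immediate early list, that of EGR1. A match is a run of letters and was not tied to binding.

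The response to BAY-850 differed between the lines in 2435 genes, 14.5% of those tested, with 1128 positive interactions (6.7%) and 1307 negative ones (7.77%). Scaled by library size alone in place of TMM, 1062 were positive and 773 negative. Among the 12060 genes at a mean of at least 1 CPM in each line, 2258 were called, of which 1067 were positive and 1191 negative. At an unadjusted p under 0.05 there were 2271 positive and 2480 negative genes. The called interactions had a median size of 0.52 on the log2 scale, with quartiles of 0.39 and 0.79, and 1026 of them (6.1%) were at least 1.5-fold. When the test itself required more than a 1.5-fold difference, 164 genes passed. The median interaction of all genes tested was −0.02. By mean level, 6.47% of genes were called at 1 to 10 CPM, 19.0% at 10 to 100 CPM and 29.6% at 100 CPM or more. The share called thus rose with the level of a gene, and the part of count depth in this was not tested. Within the same fit BAY-850 raised 469 genes (2.79%) and lowered 214 (1.27%) in PA-1, and raised 1729 (10.3%) and lowered 1810 (10.8%) in SK-OV-3. These are the shares to set beside the genes that rose or fell in the lists below. A call in 1 line without a call in the other does not make a difference between the lines, and 1742 such genes had no called interaction. BAY-850 and DMSO libraries did not overlap in either line in 10.4% of the genes tested and in 37.5% of the called genes.

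The responses also moved with base composition. Over 14513 protein-coding genes the Spearman correlation of GC content with the log2 fold change was 0.351 in PA-1, 0.0803 in SK-OV-3 and −0.108 with the interaction, across genes, which share these 12 libraries. The 10% of genes with the lowest GC held 177 positive and 49 negative calls, and the 10% with the highest held 84 positive and 141 negative calls. The part of GC content in any gene's result was not tested, but a fit corrected for it called 2552 genes. The biological coefficient of variation fitted to each line alone was 0.0935 in PA-1 and 0.155 in SK-OV-3. In the fit of all 12 libraries it was 0.123. The calls within each line thus rest on a spread shared by both lines, above that of PA-1 alone and below that of SK-OV-3 alone.

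**Figure D1:**
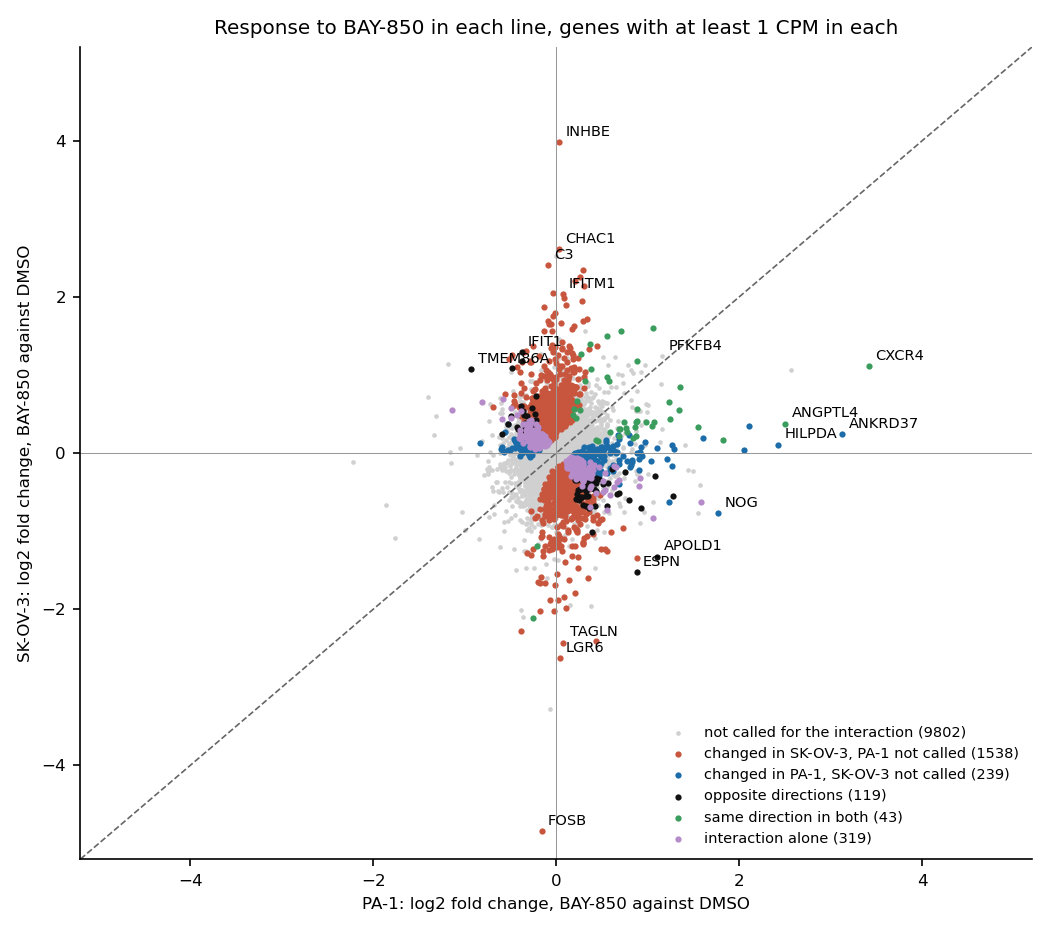
Log2 fold change of BAY-850 against DMSO in PA-1 (x axis) and in SK-OV-3 (y axis), 1 point per gene at a mean of at least 1 CPM in each line, coloured by the class of its interaction call; 12057 genes are drawn and 3 lie beyond the axes. Along the vertical spread around 0 on the x axis lie 1538 genes called in SK-OV-3 alone and along the horizontal one 239 called in PA-1 alone, while 119 were called in opposite directions.

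Called interactions were sorted by the calls within each line. In 1667 genes (9.9%) SK-OV-3 responded with a call and PA-1 had none, 816 of them higher and 851 lower with BAY-850. The reverse held in 257 genes (1.53%), 172 higher and 85 lower in PA-1. Both lines were called in opposite directions in 120 genes (0.713%), of which 72 rose in PA-1 and fell in SK-OV-3 and 48 did the reverse. Both were called in the same direction with different sizes in 45 genes (0.267%), where 43 rose and 2 fell (FOS and EGR1), and the response was larger in SK-OV-3 in 18 and in PA-1 in 27. In 346 genes (2.06%) the interaction was called with no call in either line. A further 113 genes were called in both lines in the same direction without a called interaction, 95 higher and 18 lower. Counted apart from these classes, 113 genes (0.671%) were called in both lines in the same direction with responses within 1.5-fold. In these the 95% interval of the interaction lay inside 1.5-fold, whether or not the interaction was called, so the set overlaps the 45. The classes that need a call in PA-1 moved most when single libraries were left out. Opposite genes numbered 62 without PA-1 DMSO replicate 1, 44 without PA-1 DMSO replicate 2, 62 without PA-1 BAY-850 replicate 1 and 43 without PA-1 BAY-850 replicate 2. Genes of the PA-1 class numbered 124, 111, 161 and 101 without the same libraries in that order, and 388 without SK-OV-3 BAY-850 replicate 3. Genes called in the same direction numbered 26 without PA-1 BAY-850 replicate 2. Genes within 1.5-fold numbered 67 without PA-1 DMSO replicate 1, 60 without PA-1 DMSO replicate 2, 52 without PA-1 BAY-850 replicate 2 and 208 without SK-OV-3 BAY-850 replicate 3.

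Among called genes at a mean of at least 1 CPM over the libraries of each line, INHBE and FOSB had the highest and lowest interaction. INHBE (chr12:57452323-57459280 in hg38, plus strand) encodes a subunit of activin E and is a target of ATF4. INHBE was at 43.6, 43 and 40.9 CPM in PA-1 DMSO, 43.9, 42.4 and 43.7 CPM in PA-1 BAY-850, 0.126, 0.212 and 0.104 CPM in SK-OV-3 DMSO and 2.36, 2.2 and 2.48 CPM in SK-OV-3 BAY-850. The 3 treated SK-OV-3 libraries lay above all 3 of their controls, the PA-1 groups overlapped, and every PA-1 library lay far above every SK-OV-3 library. The log2 fold change of INHBE was 0.03 in PA-1 and 3.98 in SK-OV-3, with an interaction of 3.95 ± 0.22 (SE; adjusted p 2.13e-08). The SK-OV-3 value is set against controls of few counts. INHBE met the level of 1 CPM in SK-OV-3 only through the treated libraries, with a mean of 0.147 CPM in DMSO and 2.35 CPM in BAY-850. FOSB (chr19:45467995-45475179, plus strand), an AP-1 transcription factor of the immediate early class, was at 5.12, 5.66 and 5.32 CPM in PA-1 DMSO, 4.07, 4.85 and 5.53 CPM in PA-1 BAY-850, 65.4, 65.3 and 68.8 CPM in SK-OV-3 DMSO and 1.89, 2.82 and 2.23 CPM in SK-OV-3 BAY-850. In SK-OV-3 the groups were far apart and the treated libraries fell below the level of PA-1, where the groups overlapped. FOSB fell by 4.84 on the log2 scale in SK-OV-3, with an interaction of −4.68 ± 0.19 (adjusted p 1.44e-09).

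Other genes among the 10 highest were CHAC1, which degrades glutathione (2.58), C3, the central complement component (2.49), SYNGR3 (2.09), GDF15, a stress-induced cytokine (2.05), SLC37A2 (2.01), the adhesion molecule ICAM1 (2.00), DHRS3, a retinal reductase (2.00), TMEM86A (2.00) and IFITM1, an interferon-induced membrane protein that blocks viral entry (1.97). Below FOSB came ANKRD37 (−2.89), FAM47E-STBD1 (−2.83), LGR6, an R-spondin receptor (−2.67), NOG, a secreted BMP antagonist (−2.54), TAGLN, an actin-binding protein (−2.51), APOLD1 (−2.43), ESPN, an actin bundler (−2.40), HILPDA, a lipid droplet protein (−2.32) and the chemokine receptor CXCR4 (−2.31). FAM47E-STBD1 is a readthrough transcript that shares sequence with STBD1 and lost its call in 13 of 23 other settings, so its value is uncertain. CXCR4 was called in all but 1 setting. Its SK-OV-3 BAY-850 libraries held 1.35, 2.82 and 3.97 CPM, which is a wide spread at a low level.

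**Figure D2:**
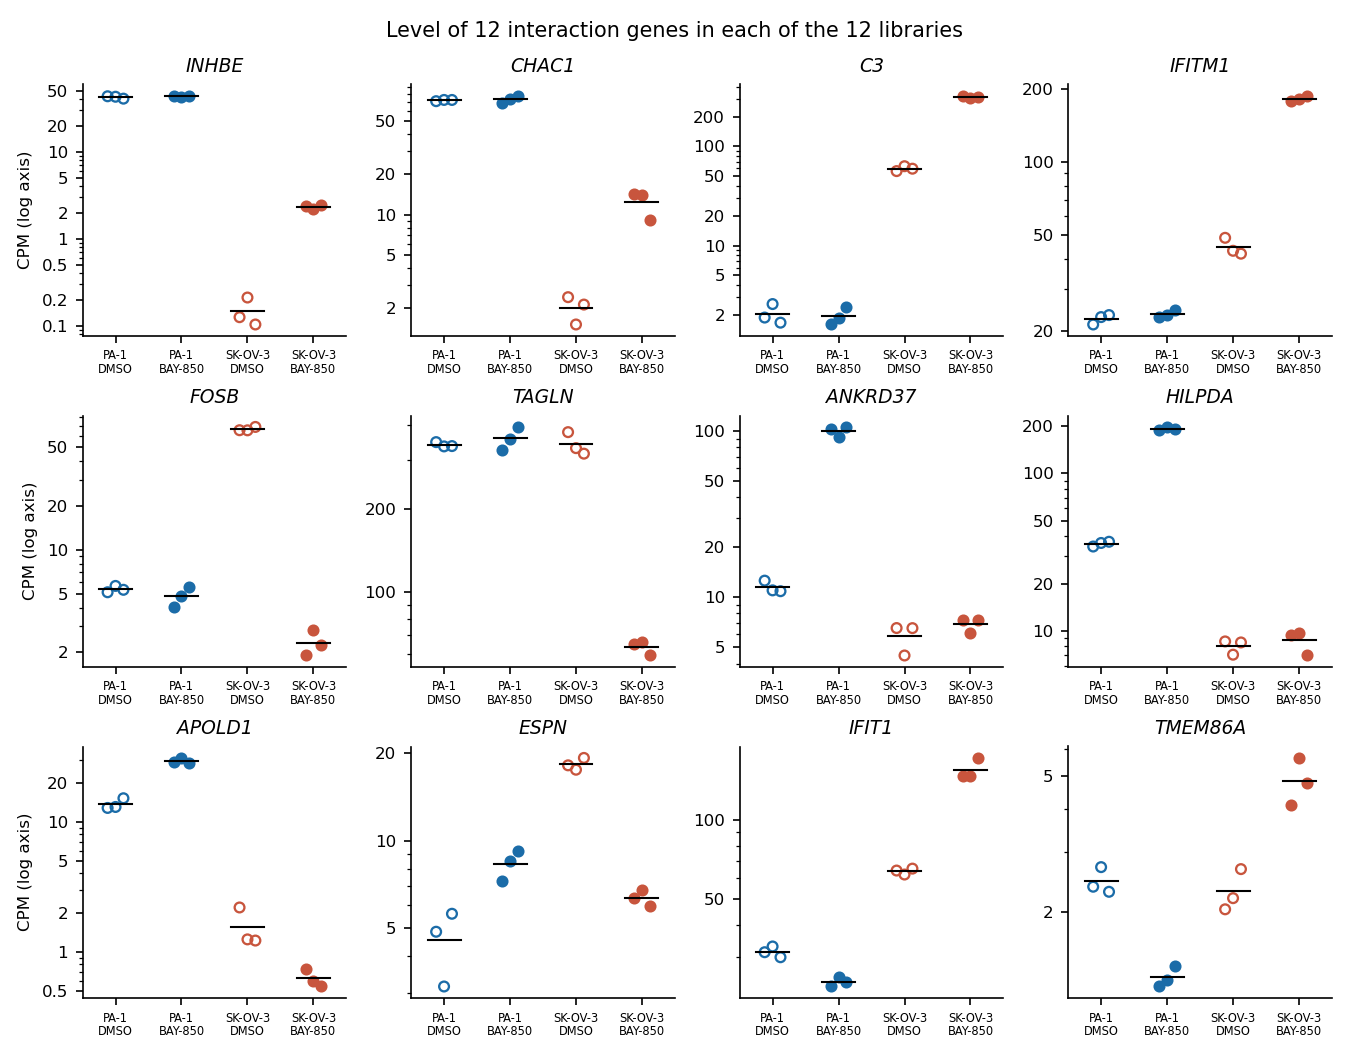
CPM of 12 genes in each library on a log axis, with open points for DMSO, filled points for BAY-850 and a line at the mean of the 3 libraries of each group. INHBE, CHAC1, C3, IFITM1 and IFIT1 move up in SK-OV-3, FOSB and TAGLN move down in SK-OV-3, ANKRD37 and HILPDA move up in PA-1, and APOLD1, ESPN and TMEM86A move in opposite directions.

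HIF target genes rose in both lines, and the responses differed gene by gene in both directions. Of 26 tested HIF targets outside glycolysis, 23 rose in PA-1 and 21 rose and 1 fell in SK-OV-3. Over all genes 2.79% rose in PA-1, and 10.3% rose and 10.8% fell in SK-OV-3. The list had 13 negative and 8 positive interactions against 7.77% and 6.7% of all genes. The median log2 fold change of the list was 0.78 in PA-1 and 0.40 in SK-OV-3, and its median interaction was −0.34 against −0.02 for all genes. Of 23 tested HIF targets of glycolysis 20 rose in PA-1 and 16 in SK-OV-3, with 7 negative and 2 positive interactions and a median of −0.12. The positive calls came to 1 without any 1 of the PA-1 libraries, SK-OV-3 DMSO replicate 1 or 3 or SK-OV-3 BAY-850 replicate 2. ANKRD37 (chr4:185396021-185400628, plus strand), an ankyrin repeat protein and a known HIF target, was at 12.6, 11 and 10.9 CPM in PA-1 DMSO, 103, 92.8 and 106 CPM in PA-1 BAY-850, 6.54, 4.47 and 6.53 CPM in SK-OV-3 DMSO and 7.31, 6.06 and 7.36 CPM in SK-OV-3 BAY-850. The PA-1 groups were far apart, and the SK-OV-3 groups overlapped. ANKRD37 rose by 3.13 ± 0.12 in PA-1 and was at 0.24 in SK-OV-3 (adjusted p 0.227), and the interaction was −2.89 ± 0.18 (adjusted p 6.16e-08). HILPDA was at 34.4, 36.2 and 36.8 CPM in PA-1 DMSO, 188, 198 and 191 CPM in PA-1 BAY-850, 8.58, 7.06 and 8.45 CPM in SK-OV-3 DMSO and 9.47, 9.71 and 6.98 CPM in SK-OV-3 BAY-850. As with ANKRD37, the SK-OV-3 groups overlapped.

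Among 4 genes of glucose and lactate transport 1 was negative and 1 positive. Among 16 glycolytic enzymes 5 were negative, 1 was positive and 10 were not called. Of all genes tested 7.77% were negative and 6.7% positive. SLC2A1, the glucose transporter GLUT1, was at 618, 580 and 616 CPM in PA-1 DMSO, 1436, 1496 and 1492 CPM in PA-1 BAY-850, 326, 322 and 327 CPM in SK-OV-3 DMSO and 341, 346 and 322 CPM in SK-OV-3 BAY-850. PA-1 groups were apart and SK-OV-3 groups overlapped, with an interaction of −1.24 ± 0.06 (adjusted p 8.3e-09). PFKFB3, which makes the activator of phosphofructokinase, averaged 63.2 CPM in PA-1 DMSO and 224 CPM in PA-1 BAY-850, and 138 and 154 CPM in SK-OV-3, with an interaction of −1.66 ± 0.08. The interaction of HK2, hexokinase 2, was −1.21, and those of LDHA, lactate dehydrogenase A, and GPI, glucose-6-phosphate isomerase, were both −0.48. ANGPTL4, a secreted inhibitor of lipoprotein lipase, rose in both lines and more in PA-1 (2.50 against 0.38; interaction −2.13 ± 0.13). EGLN1, the prolyl hydroxylase that marks HIF for destruction and is itself a HIF target, was at 0.97 in PA-1 and 0.15 in SK-OV-3 (interaction −0.83). Other HIF targets had positive interactions, among them CA9, a carbonic anhydrase (0.96), STC2, stanniocalcin 2 (0.86), DDIT4, an inhibitor of mTORC1 (0.54) and VEGFA, the angiogenic growth factor (0.29). VEGFA averaged 108 and 199 CPM in PA-1 and 176 and 399 CPM in SK-OV-3, so it rose in both lines with responses within 1.5-fold. ALDOC (0.94) and SLC2A3 (1.19) were the glycolysis targets with a positive called interaction, and SLC2A3 stayed under 1.3 CPM in SK-OV-3.

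Of the HIF regulators, EPAS1 differed between the lines and HIF1A was not called. HIF1A, the oxygen-regulated subunit, averaged 300 and 280 CPM in PA-1 and 820 and 879 CPM in SK-OV-3 in DMSO and BAY-850, with an interaction of 0.20 ± 0.08 (adjusted p 0.132; 95% interval 0.02 to 0.38). EPAS1, which encodes HIF-2α, averaged 31.1 and 35.4 CPM in PA-1 and 58.3 and 134 CPM in SK-OV-3, with an interaction of 1.01 ± 0.08. Of the 8 HIF subunits and oxygen sensors tested, EPAS1 and EGLN2 were called, both positive, against 6.7% of all genes. EGLN2, a prolyl hydroxylase, lost its call in 8 of 25 settings, which were the fits without PA-1 DMSO replicate 2 or 3, PA-1 BAY-850 replicate 1 or 2, SK-OV-3 DMSO replicate 2 or 3 and SK-OV-3 BAY-850 replicate 1 or 2. NDRG1, a HIF target that rose by 0.88 in PA-1 and 0.80 in SK-OV-3, had an interaction of −0.08 with a 95% interval of −0.24 to 0.08. PFKFB4 rose by 1.16 and 1.24, with an interaction of 0.08 and an interval of −0.22 to 0.38.

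**Figure D3:**
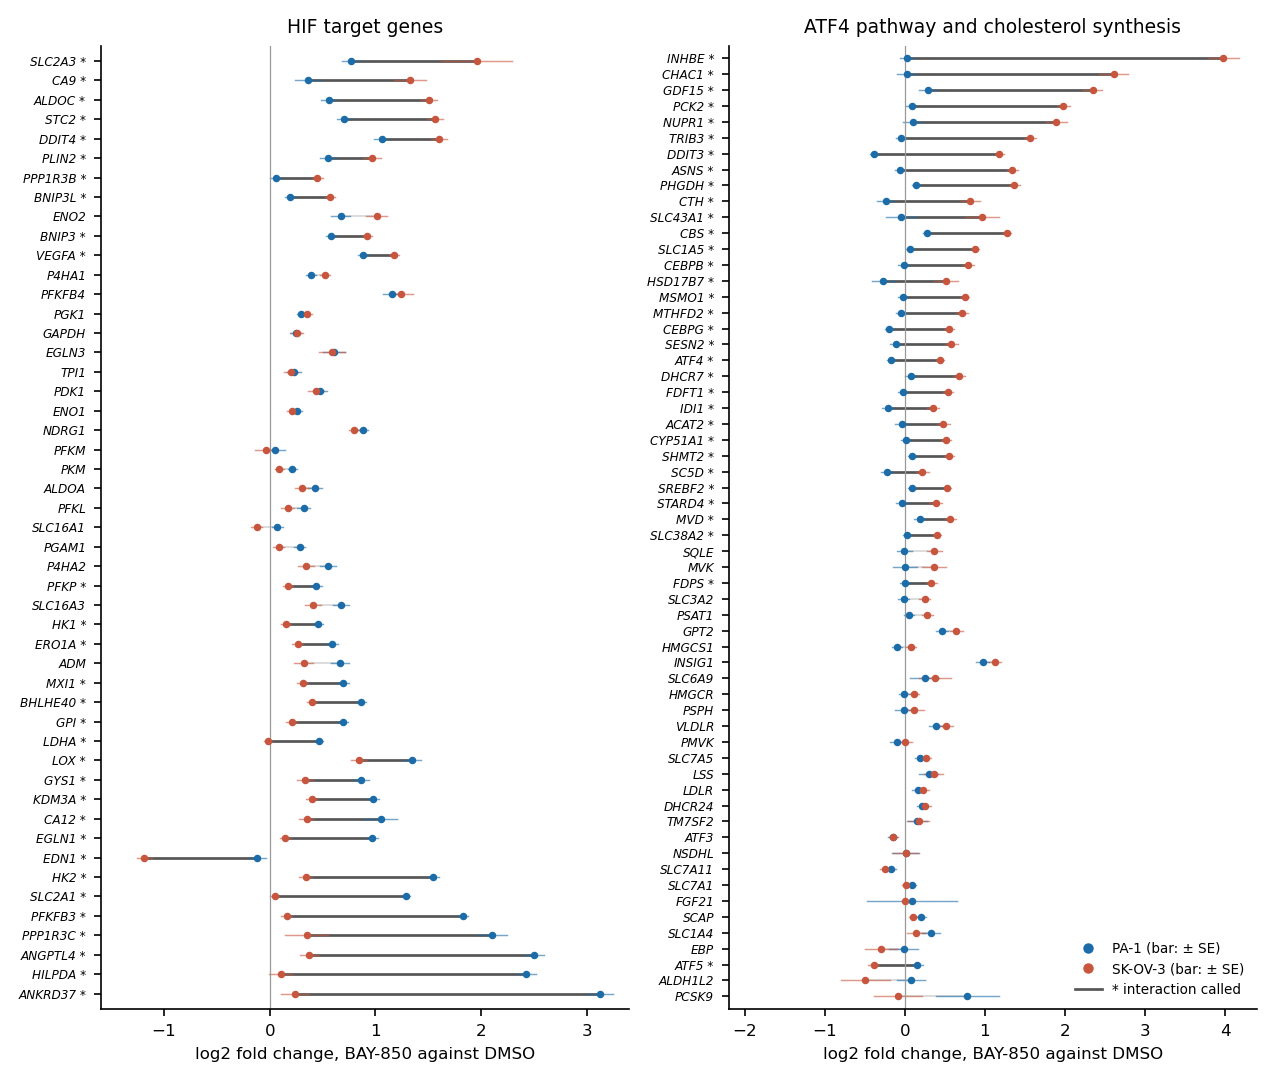
Log2 fold change of BAY-850 against DMSO for every tested member of the HIF lists (left) and of the ATF4 and cholesterol synthesis lists (right), with blue points for PA-1, red points for SK-OV-3, bars of ± SE and a star where the interaction was called. In the left panel ANKRD37, HILPDA and ANGPTL4 lie farther right in PA-1 and CA9 and STC2 in SK-OV-3, and in the right panel the SK-OV-3 points of the called genes lie to the right of PA-1, except that of ATF5, which lies to the left.

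Most genes of the ATF4 pathway rose in SK-OV-3 and had no call in PA-1. Of 34 tested members 25 rose and 2 fell in SK-OV-3 against 3 and 1 in PA-1. In this list 20 interactions were positive and 1 (ATF5, −0.55) negative, against 6.7% and 7.77% of all genes. Without SK-OV-3 BAY-850 replicate 3, 2 were negative. The median log2 fold change was 0.57 in SK-OV-3 and 0.04 in PA-1, with a median interaction of 0.66. The levels in the controls differed as well. In 28 of the 34 genes, and 18 of the 21 called ones, the mean in PA-1 DMSO was above that in SK-OV-3 BAY-850. ASNS, asparagine synthetase, was at 1387, 1377 and 1370 CPM in PA-1 DMSO, 1276, 1325 and 1363 CPM in PA-1 BAY-850, 17.4, 16.5 and 15.1 CPM in SK-OV-3 DMSO and 38.9, 40.4 and 45.2 CPM in SK-OV-3 BAY-850. The treated libraries lay above the controls in SK-OV-3 and just below them in PA-1, and neither pair overlapped. The highest SK-OV-3 library was far below every PA-1 library. The interaction of ASNS was 1.40 ± 0.09 (adjusted p 5.69e-08). PCK2, the mitochondrial phosphoenolpyruvate carboxykinase, was at 248, 242 and 272 CPM in PA-1 DMSO, 248, 266 and 296 CPM in PA-1 BAY-850, 12.6, 11.4 and 11.2 CPM in SK-OV-3 DMSO and 46.8, 48.1 and 44.2 CPM in SK-OV-3 BAY-850. Again the SK-OV-3 groups were apart and the PA-1 groups overlapped, with an interaction of 1.89 ± 0.10 (adjusted p 1.92e-08).

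CHAC1 was at 70.7, 72.2 and 72.2 CPM in PA-1 DMSO, 68.8, 73.3 and 77.4 CPM in PA-1 BAY-850, 2.41, 1.51 and 2.13 CPM in SK-OV-3 DMSO and 14.2, 14 and 9.07 CPM in SK-OV-3 BAY-850. Its treated SK-OV-3 libraries were all above the controls and spread more than those of ASNS. DDIT3, the stress factor CHOP, was at 243, 235 and 231 CPM in PA-1 DMSO, 176, 172 and 197 CPM in PA-1 BAY-850, 50.9, 53.6 and 52.4 CPM in SK-OV-3 DMSO and 116, 119 and 120 CPM in SK-OV-3 BAY-850. No library of one treatment overlapped the other in either line, and the directions were opposite, with −0.38 in PA-1 (adjusted p 0.000752), 1.18 in SK-OV-3 and an interaction of 1.56 ± 0.08 (adjusted p 8.3e-09). ATF4 itself averaged 602 and 533 CPM in PA-1 and 407 and 552 CPM in SK-OV-3, with an interaction of 0.62 ± 0.07 (adjusted p 2.85e-05). The interactions of the pseudokinase TRIB3 (1.61) and of PHGDH, the first enzyme of serine synthesis (1.23), were also positive. Of 20 cytosolic aminoacyl-tRNA synthetases 8 were positive and 1 (VARS, −0.49) was negative, against 6.7% and 7.77% of all genes. The largest values were in CARS (1.09) and AARS (0.97), which charge cysteine and alanine tRNAs. The negative synthetase calls came to 0 without PA-1 DMSO replicate 2 or PA-1 BAY-850 replicate 2, and to 2 without PA-1 DMSO replicate 3 or SK-OV-3 BAY-850 replicate 3. Among 22 genes of endoplasmic reticulum chaperones and the unfolded protein response 3 were positive and 5 negative, and the 5 negative ones were among the 14 chaperones. Cytosolic heat shock genes fell in PA-1 in 7 of 14 tested, against 1.27% of all genes. Of their interactions 4 were positive and 1 negative, against 6.7% and 7.77% of all genes. DNAJA1, a co-chaperone of HSP70, was at −0.27 in PA-1 and 0.21 in SK-OV-3.

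Interferon-induced genes rose in SK-OV-3, and few were called in PA-1. Of 39 tested, 35 rose and none fell in SK-OV-3, while 1 rose and 4 fell in PA-1. By edgeR's test 31 interactions were positive and 0 negative, against 6.7% and 7.77% of all genes. At an unadjusted p under 0.05, 34 were positive and 0 negative. DESeq2, voom and the other settings tried gave 0 negative calls in this list, and the positive ones ranged from 24 with voom to 33. The median log2 fold change was 0.94 in SK-OV-3 and −0.13 in PA-1, with a median interaction of 0.88. In PA-1 12 of the 39 genes averaged under 1 CPM, and of the 27 genes at 1 CPM or more in each line 24 were called, with a median of 0.82. IFITM1 was at 21.4, 22.9 and 23.4 CPM in PA-1 DMSO, 23, 23.5 and 24.6 CPM in PA-1 BAY-850, 48.7, 43 and 41.9 CPM in SK-OV-3 DMSO and 179, 182 and 187 CPM in SK-OV-3 BAY-850. SK-OV-3 groups were far apart and PA-1 groups overlapped, with an interaction of 1.97 ± 0.09 (adjusted p 4.91e-09). Reads of IFITM1 can be shared with its near copies IFITM2 and IFITM3. IFIT1, which binds foreign RNA, was at 31.4, 33 and 30 CPM in PA-1 DMSO, 23.2, 25.2 and 24.2 CPM in PA-1 BAY-850, 64.3, 62.1 and 65.4 CPM in SK-OV-3 DMSO and 148, 148 and 173 CPM in SK-OV-3 BAY-850. Neither line had overlapping groups, and IFIT1 fell in PA-1 (−0.38, adjusted p 0.00746) and rose in SK-OV-3 (1.29), with an interaction of 1.67 ± 0.10 (adjusted p 4.61e-08). IFIT3 went the same way, at −0.48 and 1.09. BST2, the tetherin that holds virions at the cell surface, averaged 227 and 199 CPM in PA-1 and 158 and 375 CPM in SK-OV-3 (interaction 1.43 ± 0.08).

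All 7 sensors and transcription factors of the interferon list were called, all positive. Over all genes tested, 6.7% were positive and 7.77% negative, which is the share to set beside the lists below. IRF9, which gives the interferon complex its DNA specificity, averaged 10.7 and 9.94 CPM in PA-1 and 42.9 and 89.7 CPM in SK-OV-3, with an interaction of 1.17 ± 0.11 (adjusted p 8.94e-06), and that of IRF1 was 0.40 ± 0.10. Of 15 genes of HLA class I presentation 3 were positive and 0 negative by edgeR's quasi-likelihood test (6 and 2 at an unadjusted p under 0.05), while DESeq2, the likelihood ratio test and the GC correction each called 5 positive and 1 negative. Without 1 library this list had 2 to 5 positive calls, with 5 without PA-1 BAY-850 replicate 3, and 1 negative call without PA-1 DMSO replicate 1 or 2, PA-1 BAY-850 replicate 2 or SK-OV-3 DMSO replicate 1. B2M, the light chain of class I molecules, was at −0.27 in PA-1 and 0.26 in SK-OV-3. Genes of NF-kB signalling were positive in 6 of 15, with NFKBIA, the inhibitor that NF-kB itself induces, at 0.01 in PA-1 and 0.82 in SK-OV-3. Of 23 complement and cytokine genes tested 6 were positive and 0 negative by edgeR's test (9 and 1 at an unadjusted p under 0.05, and 1 negative call by the likelihood ratio test or without PA-1 BAY-850 replicate 1), and 11 of the 23 were under 1 CPM in PA-1. C3 was at 1.88, 2.57 and 1.67 CPM in PA-1 DMSO, 1.6, 1.88 and 2.39 CPM in PA-1 BAY-850, 56.4, 63.2 and 59.6 CPM in SK-OV-3 DMSO and 323, 307 and 319 CPM in SK-OV-3 BAY-850. The PA-1 values were low and overlapping and the SK-OV-3 groups were apart, with an interaction of 2.49 ± 0.19 (adjusted p 6.21e-07). CSF1, the macrophage growth factor, averaged 14.2 and 13.4 CPM in PA-1 and 51.7 and 162 CPM in SK-OV-3 (interaction 1.73 ± 0.09), and CD55, which protects cells from complement, was at −0.26 and 0.58.

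DNA replication genes fell in SK-OV-3, and those called in PA-1 rose. Of 46 tested, 39 fell and none rose in SK-OV-3, 6 rose and none fell in PA-1, and 34 interactions were negative and 0 positive by edgeR's test, against 7.77% and 6.7% of all genes. At an unadjusted p under 0.05, 38 were negative and 0 positive, and DESeq2, voom and the other settings called 28 to 36 negative and 0 positive. The interaction was below 0 in 45 of the 46 genes, against 8747 of the 16830 genes tested, and the median was −0.55, from 0.04 in PA-1 and −0.49 in SK-OV-3. Called genes made up 14 of 16 genes of origin licensing and the helicase, 10 of 15 of polymerases and the fork, 8 of 9 of nucleotide supply and chromatin assembly and 2 of 6 E2F and cyclin E genes. MCM4, a subunit of the replicative helicase, was at 96.7, 91.8 and 94.1 CPM in PA-1 DMSO, 113, 116 and 117 CPM in PA-1 BAY-850, 101, 103 and 105 CPM in SK-OV-3 DMSO and 62.2, 68 and 65.3 CPM in SK-OV-3 BAY-850. The groups were apart in both lines and in opposite directions, with 0.29 in PA-1, −0.66 in SK-OV-3 and an interaction of −0.95 ± 0.07 (adjusted p 6.16e-07). UHRF1, which keeps DNA methylation at replicated DNA, averaged 27.2 and 34.9 CPM in PA-1 and 49.8 and 30.7 CPM in SK-OV-3 (interaction −1.06 ± 0.10). RRM2, a subunit of ribonucleotide reductase, averaged 30.1 and 33.7 CPM in PA-1 and 129 and 71.9 CPM in SK-OV-3 (−1.01 ± 0.09). E2F1 had an interaction of −0.66 ± 0.11, and POLE, the leading strand polymerase, of −0.87. With MCM2, MCM5, MCM4, UHRF1 and POLE, 5 genes of this list were called in opposite directions.

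**Figure D4:**
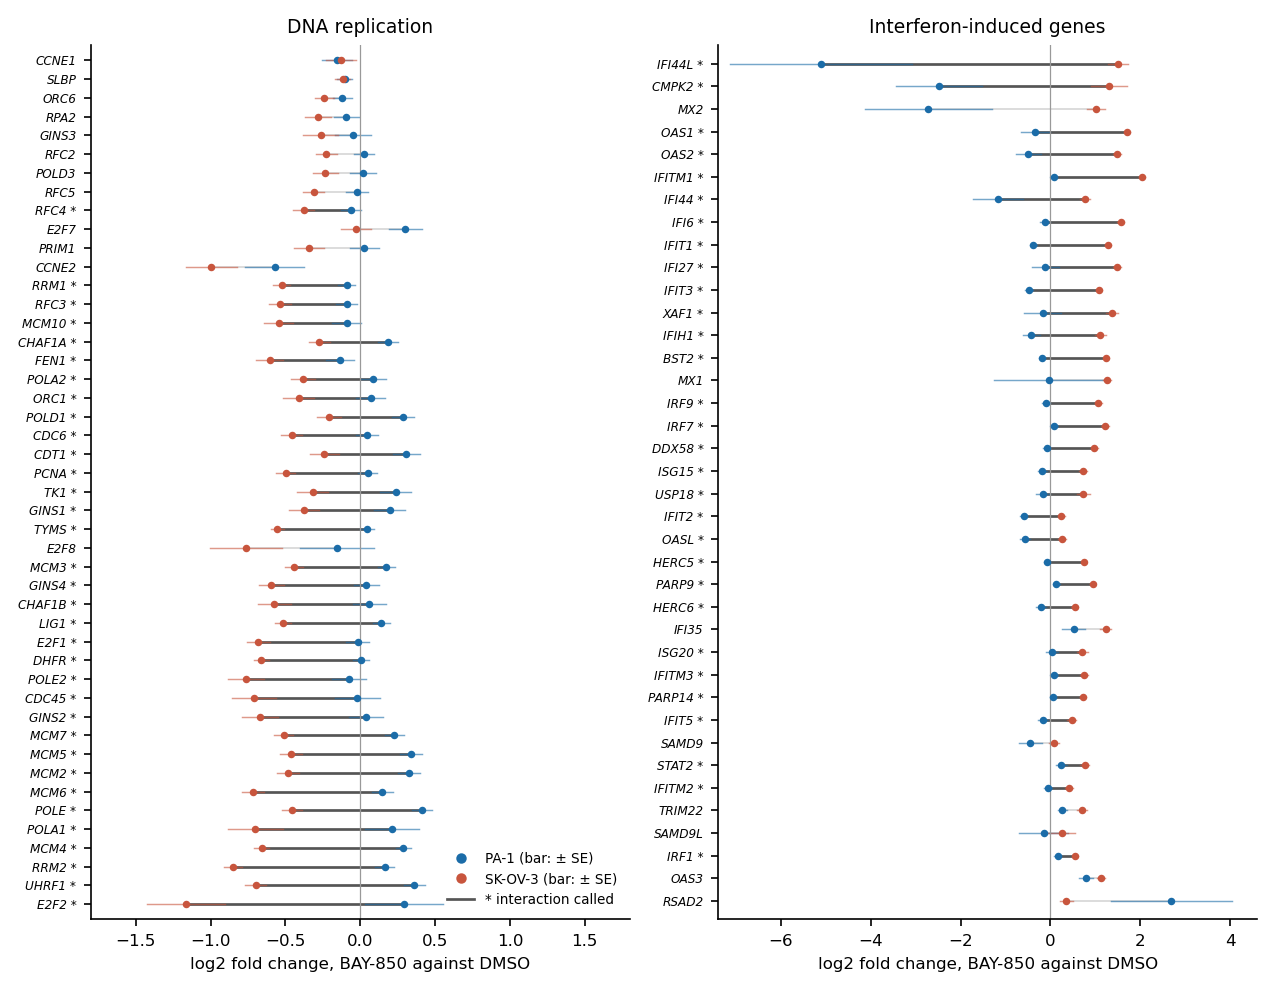
Log2 fold change of BAY-850 against DMSO for every tested member of the DNA replication list (left) and for 38 of the interferon list (right), with blue points for PA-1, red points for SK-OV-3, bars of ± SE and a star where the interaction was called. The SK-OV-3 points lie left of the PA-1 points in 45 of 46 replication genes and right of them in the called interferon genes, and the interferon genes with the longest bars are under 1 CPM in PA-1.

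Many mitosis and centromere genes also fell in SK-OV-3. Of 40 tested, 22 fell in SK-OV-3 and 4 in PA-1, with 13 negative interactions and 0 positive by edgeR's test, against 7.77% and 6.7% of all genes, and a median of −0.18. At an unadjusted p under 0.05, 17 were negative and 3 positive, and 1 positive call was made without SK-OV-3 BAY-850 replicate 3 and 0 in the other settings, DESeq2 and voom included. By role, 4 of 20 centromere and kinetochore genes had a called interaction (median −0.08), and 8 of the 20 fell in SK-OV-3. Of 9 checkpoint genes and kinases 3 were called (median −0.19), and of 11 cyclin B, topoisomerase and motor genes 6 (median −0.32). KIF20A, a kinesin of cytokinesis, averaged 38.8 and 40.8 CPM in PA-1 and 83.6 and 48.1 CPM in SK-OV-3 (interaction −0.87 ± 0.08, adjusted p 5.17e-06). CENPE, the kinetochore motor that the study followed, was at 38.8, 44.1 and 39.2 CPM in PA-1 DMSO, 33.6, 36.7 and 28.5 CPM in PA-1 BAY-850, 24.6, 31.8 and 32.6 CPM in SK-OV-3 DMSO and 19.8, 23.5 and 27.8 CPM in SK-OV-3 BAY-850. Treated libraries were below all controls in PA-1 and overlapped them in SK-OV-3. The log2 fold change of CENPE was −0.31 in PA-1 and −0.32 in SK-OV-3, and the interaction was −0.01 ± 0.18 (adjusted p 0.998), with a 95% interval from −0.41 to 0.38. The study also reported CENPE as significantly lower in both lines by qRT-PCR and immunoblot, which are other measures than these counts. ATAD2 was at 41.6, 41.5 and 41.1 CPM in PA-1 DMSO, 38.5, 37.1 and 33.8 CPM in PA-1 BAY-850, 70.3, 83.3 and 84.7 CPM in SK-OV-3 DMSO and 54.5, 59.1 and 56.4 CPM in SK-OV-3 BAY-850. Its treated libraries lay below the controls in both lines. The interaction of ATAD2 was −0.30 ± 0.11 (adjusted p 0.0701; 95% interval −0.53 to −0.08), and it was called in 6 of 25 other settings.

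Many immediate early, actin and matrix genes fell in SK-OV-3. Of 21 immediate early genes, which respond to growth factors within minutes, 9 fell and 4 rose in SK-OV-3. Of their interactions 6 were negative and 2 positive, against 7.77% and 6.7% of all genes. The positive calls came to 0 without PA-1 DMSO replicate 1 or 2 or PA-1 BAY-850 replicate 2, and to 1 without PA-1 BAY-850 replicate 1, SK-OV-3 DMSO replicate 2 or 3 or SK-OV-3 BAY-850 replicate 1 or 2. FOS averaged 310 and 260 CPM in PA-1 and 159 and 36.7 CPM in SK-OV-3, with an interaction of −1.86 ± 0.07 (adjusted p 1.28e-09). EGR1, a zinc finger factor, averaged 1468 and 1266 CPM in PA-1 and 536 and 235 CPM in SK-OV-3, with an interaction of −0.97 ± 0.06. FOS and EGR1 fell in both lines, and EGR3 had an interaction of −1.99. Of 20 SRF and actin genes 11 fell in SK-OV-3, and 11 interactions were negative and 1 (FILIP1L, 0.90) positive. TAGLN was at 347, 335 and 336 CPM in PA-1 DMSO, 324, 357 and 394 CPM in PA-1 BAY-850, 377, 330 and 316 CPM in SK-OV-3 DMSO and 64.9, 66 and 59.1 CPM in SK-OV-3 BAY-850. The control libraries of both lines and the treated ones of PA-1 lay together, and the treated SK-OV-3 libraries lay far below, with an interaction of −2.51 ± 0.11 (adjusted p 1.83e-09). ACTB, cytoplasmic actin, averaged 2405 and 2846 CPM in PA-1 and 1578 and 1132 CPM in SK-OV-3, and FLNA, an actin crosslinker, averaged 816 and 1061 CPM in PA-1 and 2303 and 1867 CPM in SK-OV-3, so both moved in opposite directions. ACTB and ACTG1 are near copies, which makes the division of their reads uncertain. SRF itself was not called (−0.14).

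Of 20 TGF-β and matrix genes 9 fell and 2 rose in SK-OV-3, and 5 rose and 1 fell in PA-1. The interactions were negative in 10 and positive in 2, against 7.77% and 6.7% of all genes, with a median of −0.73. Of the 11 matrix targets 9 were negative. THBS1, thrombospondin 1, averaged 42.7 and 43 CPM in PA-1 and 351 and 120 CPM in SK-OV-3, with an interaction of −1.56 ± 0.12 (adjusted p 5.9e-07). COL1A1, a chain of collagen I, was at 0.33 in PA-1, short of a call (adjusted p 0.0647), and at −0.78 in SK-OV-3, with an interaction of −1.11 ± 0.14. The interaction of TGFBI, a secreted matrix protein, was −1.08 ± 0.07. BAMBI, a decoy receptor of the TGF-β family, was positive (0.64). Of 29 YAP and TEAD genes 6 were negative and 2 positive, and CTGF, a matrix-associated protein, averaged 279 and 249 CPM in PA-1 and 194 and 64.7 CPM in SK-OV-3 (interaction −1.42 ± 0.08). Of 16 genes of ERK feedback 3 were negative and 3 positive. Among genes with a call in SK-OV-3 and a log2 fold change under 0.2 in size in PA-1, SGK1, a kinase induced by serum and glucocorticoids, averaged 29.7 and 28.3 CPM in PA-1 and 162 and 44.1 CPM in SK-OV-3 (interaction −1.81 ± 0.11).

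Cholesterol synthesis genes rose in SK-OV-3. Of 26 genes tested 15 rose in SK-OV-3 and 1 in PA-1. By edgeR's test 12 interactions were positive and 0 negative, against 6.7% and 7.77% of all genes, with a median of 0.34. At an unadjusted p under 0.05, 13 were positive and 0 negative, and DESeq2, voom and the other settings called 8 to 13 positive and 0 negative. MSMO1, a sterol demethylase, averaged 59.7 and 58.6 CPM in PA-1 and 58.4 and 97.9 CPM in SK-OV-3, with an interaction of 0.77 ± 0.08 (adjusted p 1.76e-05). SREBF2, which encodes the regulator of the pathway, had an interaction of 0.44 ± 0.07, and that of DHCR7, the last enzyme of cholesterol synthesis, was 0.60. INSIG1, which retains that regulator in the endoplasmic reticulum, rose by 0.97 in PA-1 and 1.12 in SK-OV-3, with a difference of 0.15 and a 95% interval of −0.08 to 0.38. The fatty acid desaturase SCD rose in both lines, from 372 to 480 CPM in PA-1 and from 65 to 170 CPM in SK-OV-3 (interaction 1.02 ± 0.08). Of 10 fatty acid synthesis genes 2 were positive and 1 negative. The positive calls came to 1 without PA-1 DMSO replicate 2, PA-1 BAY-850 replicate 2 or SK-OV-3 DMSO replicate 1, and the negative ones to 2 without PA-1 DMSO replicate 3, PA-1 BAY-850 replicate 3, SK-OV-3 DMSO replicate 1 or SK-OV-3 BAY-850 replicate 1. Of 33 V-ATPase and cathepsin genes, which acidify and degrade in lysosomes, 6 were positive and 0 negative by edgeR's test, with 8 and 0 at an unadjusted p under 0.05 and 0 negative calls by DESeq2 and voom. Of 17 NRF2 targets, genes of the antioxidant response, 2 were positive and 5 negative. The positive calls came to 0 without PA-1 DMSO replicate 3 or SK-OV-3 DMSO replicate 2, and to 1 without any of the other libraries except PA-1 BAY-850 replicate 1 and SK-OV-3 BAY-850 replicate 3.

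**Figure D5:**
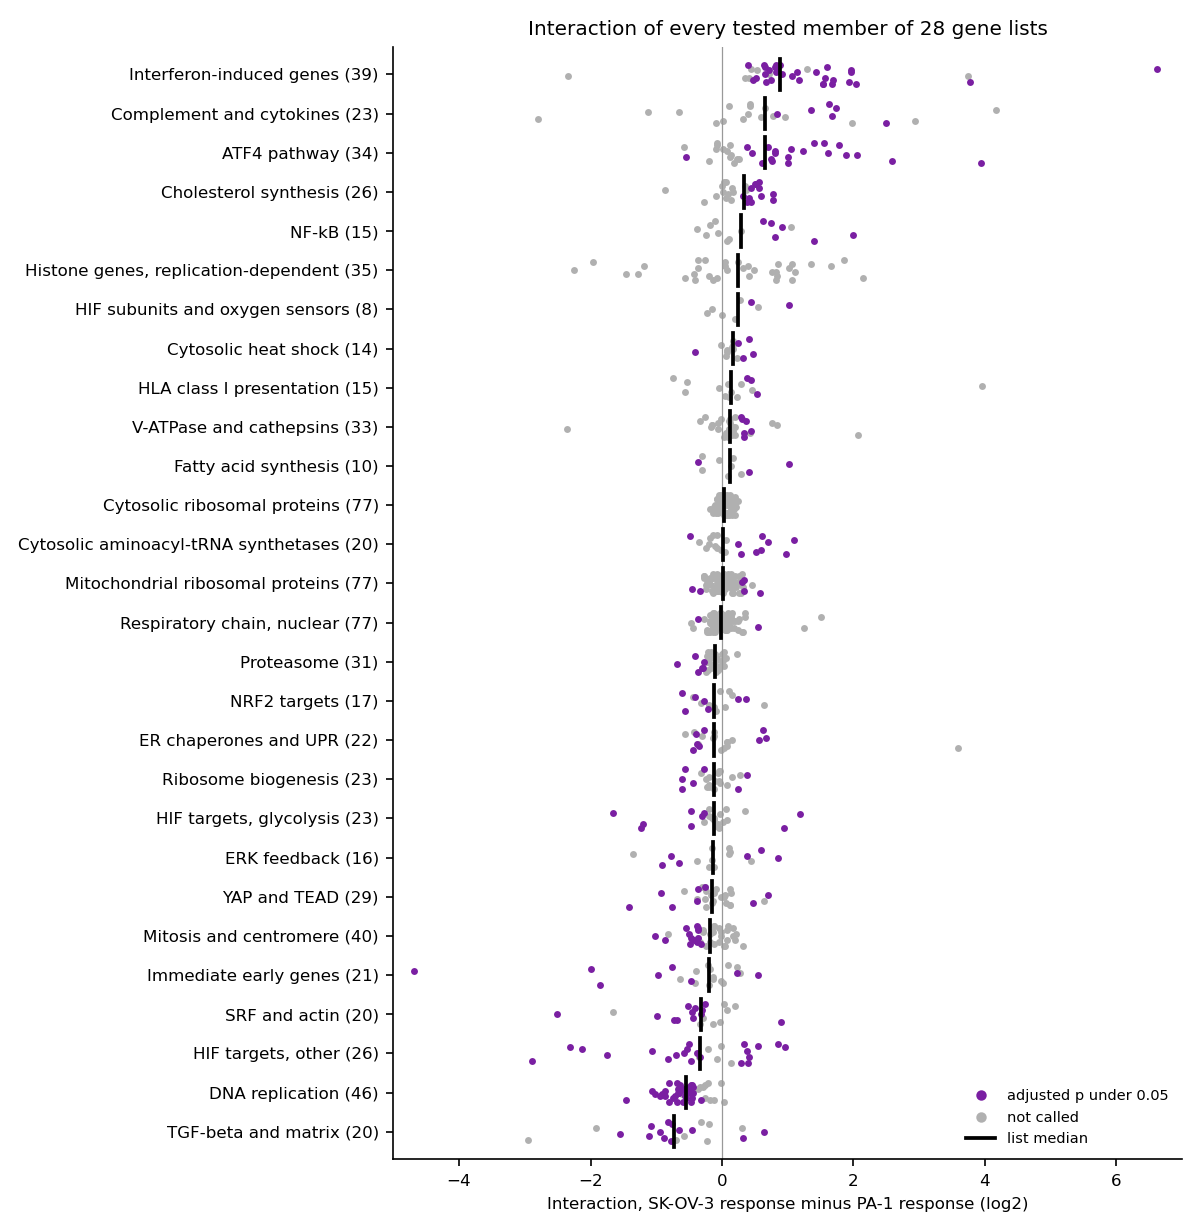
Interaction (log2, SK-OV-3 response minus PA-1 response) of every tested member of 28 gene lists, 1 point per gene, with the number tested in brackets, purple points for called genes and a bar at the list median. The interferon list lies to the right of 0 with a median of 0.88 and the DNA replication list to the left with a median of −0.55, while the 77 cytosolic ribosomal proteins lie close to 0 with no call.

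Ribosomal protein and respiratory chain genes were called no more often than all genes, of which 6.7% were positive and 7.77% negative. None of 77 cytosolic ribosomal protein genes was called with edgeR, and none had an unadjusted p under 0.05. DESeq2, voom and edgeR's likelihood ratio test called 0 as well, and 1 was called without SK-OV-3 DMSO replicate 1. Of 77 mitochondrial ribosomal proteins 4 were positive and 2 negative, and of 77 nuclear genes of the respiratory chain 1 was positive and 1 negative. For the mitochondrial ribosomal proteins, 1 positive call was left without PA-1 DMSO replicate 1 or SK-OV-3 DMSO replicate 2. Their positive calls came to 2 without SK-OV-3 DMSO replicate 3 and to 6 without SK-OV-3 DMSO replicate 1. Their negative calls came to 0 without PA-1 DMSO replicate 2, PA-1 BAY-850 replicate 3, SK-OV-3 DMSO replicate 1 or SK-OV-3 BAY-850 replicate 2, and to 1 without PA-1 DMSO replicate 3, SK-OV-3 DMSO replicate 2 or 3 or SK-OV-3 BAY-850 replicate 1. For the respiratory chain, positive calls came to 3 without SK-OV-3 BAY-850 replicate 1 and to 2 without PA-1 BAY-850 replicate 3, SK-OV-3 DMSO replicate 1 or SK-OV-3 BAY-850 replicate 3, and negative ones to 2 without SK-OV-3 BAY-850 replicate 1. Of 31 proteasome genes 18 fell in SK-OV-3, against 10.8% of all genes, and 6 interactions were negative, or 3 without PA-1 DMSO replicate 2. Of 23 ribosome biogenesis genes 2 were positive and 5 negative. Positive calls of that list came to 1 without any library but SK-OV-3 DMSO replicate 2 and SK-OV-3 BAY-850 replicate 1, and negative ones to 3 without PA-1 DMSO replicate 3, SK-OV-3 DMSO replicate 2 or 3 or SK-OV-3 BAY-850 replicate 1. Of 35 replication-dependent histone genes tested 0 were called with edgeR, with 2 positive and 1 negative at an unadjusted p under 0.05, 0 called by DESeq2 and 1 by voom and without SK-OV-3 DMSO replicate 1. Their transcripts lack poly(A) tails, and the sources name both an oligo-dT and a ribosomal depletion step, so histone levels carry little weight here. Over all 28 lists 837 genes were tested and 263 called, so that 2172 called genes stood in none of them.

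Genes that moved in opposite directions covered other functions as well, since 103 of the 120 stood in no list. APOLD1, an early response gene of vessel cells, was at 12.8, 13 and 15.1 CPM in PA-1 DMSO, 28.8, 30.9 and 28.2 CPM in PA-1 BAY-850, 2.19, 1.24 and 1.22 CPM in SK-OV-3 DMSO and 0.738, 0.592 and 0.54 CPM in SK-OV-3 BAY-850. ESPN was at 4.86, 3.15 and 5.6 CPM in PA-1 DMSO, 7.25, 8.49 and 9.21 CPM in PA-1 BAY-850, 18.2, 17.5 and 19.3 CPM in SK-OV-3 DMSO and 6.37, 6.77 and 5.96 CPM in SK-OV-3 BAY-850. Groups of both genes were apart in each line, rising in PA-1 and falling in SK-OV-3, with interactions of −2.43 ± 0.29 for APOLD1 and −2.40 ± 0.26 for ESPN (adjusted p 2e-05). TMEM86A, a lysoplasmalogenase, was at 2.37, 2.71 and 2.29 CPM in PA-1 DMSO, 1.21, 1.27 and 1.39 CPM in PA-1 BAY-850, 2.04, 2.2 and 2.67 CPM in SK-OV-3 DMSO and 4.11, 5.64 and 4.77 CPM in SK-OV-3 BAY-850. It fell in PA-1 (adjusted p 0.0463) and rose in SK-OV-3, with an interaction of 2.00 ± 0.34. The other opposite genes with the largest smaller response were BEND3 (−1.62), DDIT4L (−1.39) and COL12A1 (−1.24), which rose in PA-1, and IFIT3 (1.57), ZMYM5 (0.97), AMN1 (0.99) and IFIT1 (1.67), which rose in SK-OV-3.

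Responses with a call in PA-1 and little in SK-OV-3 were led by HIF targets and included ARRDC2 and ARRDC4, which are α-arrestins of nutrient transport. ARRDC2 averaged 8.74 and 20.3 CPM in PA-1 and 13.7 and 13.1 CPM in SK-OV-3 (interaction −1.28), and ARRDC4 averaged 37.7 and 21.2 CPM in PA-1 and 28.6 and 31.1 CPM in SK-OV-3 (0.95). TFRC, the transferrin receptor, averaged 153 and 261 CPM in PA-1 and 252 and 236 CPM in SK-OV-3 (−0.87). Shared falls were rare. HSPA6, an inducible HSP70, averaged 3.19 and 1.78 CPM in PA-1 and 97.7 and 45.7 CPM in SK-OV-3, with responses of −0.84 and −1.10 and an interaction of −0.26 (95% interval −0.52 to 0.01). ANKRD1, a YAP target, averaged 503 and 400 CPM in PA-1 and 594 and 429 CPM in SK-OV-3, with an interaction of −0.14 (95% interval −0.29 to 0.01). A gene at or near 0 in 1 line gives little measure of a difference. At a mean of at least 5 CPM in 1 line and under 0.1 CPM in every library of the other there were 78 genes of PA-1, of which 1 was called within PA-1, and 149 genes of SK-OV-3, of which 16 rose and 26 fell in SK-OV-3. In each of these sets 1 gene had a called interaction. BEND5 was at 9.08, 10.2 and 11 CPM in PA-1 DMSO and 19.5, 19.7 and 19.6 CPM in PA-1 BAY-850, with 1 of the 6 SK-OV-3 libraries above 0. IL1B, the cytokine interleukin 1β, was at 1.71, 1.67 and 1.3 CPM in SK-OV-3 DMSO and 19.6, 20 and 18 CPM in SK-OV-3 BAY-850, and KRT14, a keratin, was at 21.2, 18.7 and 18 CPM and at 4.48, 5.64 and 4.13 CPM. The SK-OV-3 groups of IL1B and KRT14 did not overlap and went in opposite directions, the PA-1 groups of BEND5 did not overlap either, and the interactions of these genes rest on a line at or near 0.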

How the data were processed

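RNA of 12 libraries was sequenced by the authors, who deposited expected counts per gene, estimated with RSEM 1.2.15 over Bowtie2 2.1.0 on hg38 according to the submitters' processing notes, with no normalization between libraries. RSEM divides reads that map to several genes, so the counts of near copies and overlapping genes are estimates of that division. Groups came from the labels.

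The expected counts were rounded, scaled by TMM and filtered with edgeR 4.0.16 under R 4.3.3 (filterByExpr over 4 groups), and each gene was tested with edgeR's quasi-likelihood F test, with Benjamini-Hochberg adjusted p-values called under 0.05. The fit of 4 group means gave the response of each line and the interaction. A standard error is the log2 value's size over the square root of F, and levels are CPM with the SD over 3 libraries. The script was tested on simulated counts. Coordinates are those of the hg38 annotation, matched by symbol for 23925 of 26475 genes, and promoters are from the RefSeq table of GRCh38.p14.

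The members and the 28 gene lists were chosen with earlier results of these data known, and the motifs were chosen after the values were seen. Genes are named by a rule. They are the 10 highest and 10 lowest called interactions at 1 CPM or more in each line, the 5 per direction among opposite responses, among responses of 1 line alone and among shared responses, up to 5 members per list with the smallest interaction p together with its regulators, genes expressed in 1 line, and ATAD2 and CENPE. POLE, MCM2, MCM5, MCM6, CA9, STC2, DDIT4, SLC2A3, GPI, PHGDH, ATF5, VARS, FILIP1L, COL1A1, BAMBI, IRF1, IRF9, DNMT3B and other marker genes lie outside it and were chosen after their values were seen. A gene of the interferon list, a marker gene and the promoters with an ATF4 site are not reported here. Same-numbered replicates of the groups did not deviate together (correlations from −0.0575 to 0.0451), so numbers were not taken as pairs. Alternatives were DESeq2 1.42.0, limma 3.58.1 (voom), a likelihood ratio test, other scalings, filters, a GC correction, a replicate block and leaving out each library. Replicates of a group differed by more than counting noise, with a chi-square per degree of freedom from 4.86 to 68.1.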

Additional observations from a re-analysis of the deposited data

Results flagged for a closer look

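In the genes below the response to BAY-850 differed between the lines by the interaction test itself, with a positive value where it was higher in SK-OV-3. Above 0 were INHBE (3.95), CHAC1 (2.58), C3 (2.49), SYNGR3 (2.09), GDF15 (2.05), SLC37A2 (2.01), ICAM1 (2.00), DHRS3 (2.00), TMEM86A (2.00), IFITM1 (1.97), IFIT1 (1.67), IFIT3 (1.57), AMN1 (0.99) and ZMYM5 (0.97). Below 0 were FOSB (−4.68), ANKRD37 (−2.89), FAM47E-STBD1 (−2.83), LGR6 (−2.67), NOG (−2.54), TAGLN (−2.51), APOLD1 (−2.43), ESPN (−2.40), HILPDA (−2.32), CXCR4 (−2.31), BEND3 (−1.62), DDIT4L (−1.39) and COL12A1 (−1.24). In PA-1 DMSO and BAY-850, COL12A1 averaged 3.41 and 5.03 CPM, against 354 and 221 CPM in SK-OV-3. NOG averaged 13.4 and 45.7 CPM in PA-1 and 2.68 and 1.63 CPM in SK-OV-3, where its treated libraries held 2.24, 2.37 and 0.279 CPM. LGR6 averaged 1.66 and 1.71 CPM in PA-1 and 3.98 and 0.642 CPM in SK-OV-3.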

How the results depend on the processing

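All 2435 called interactions kept their sign under every alternative that tested them, and the count ran from 1786 without PA-1 BAY-850 replicate 2 to 3303 with DESeq2, which shared 2414 genes. Positive calls ran from 826 to 1287 and negative ones from 960 to 1320 when 1 library was left out, and negative calls numbered 773 with scaling by library size only. Genes of at least 1.5-fold ran from 836 to 1150 without 1 library, and 164 passed a test against 1.5-fold. The SK-OV-3 class ran from 1258 to 1690. Opposite genes (120) numbered 300 with DESeq2, 246 with the likelihood ratio test, 54 with library size only, 59 with the replicate block, 26 with GC correction and block, and 43 to 168 without 1 library. The PA-1 class (257) numbered 482, 470, 135, 145 and 89 in the same order, 400 with each line fitted alone, 144 with GC correction, and 101 to 388 without 1 library. Same-direction genes (45) numbered 85 with DESeq2, 71 with the likelihood ratio test, 26 with library size only, 28 with the block and 26 to 62 without 1 library. Genes within 1.5-fold (113) numbered 255, 203, 63 and 68 in that order, 57 with GC correction and block, 177 with at least 10 counts in every library, and 52 to 208 without 1 library. The replicate block, whose numbers did not pair the libraries, called 1957 genes, of which 1869 were shared. The causes were not tested, except that leaving out a library leaves fewer samples.

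Of 187 named genes 150 were called, 129 of them in every setting, and 7 changed sign in some setting, none of them called. Without 1 library, PFKFB4 ran from −0.0099 to 0.20, STBD1 from −0.0915 to 0.127, AKR1C2 from −0.242 to 0.0400, ING3 from −0.118 to 0.0813, MRPL1 from −0.0595 to 0.0780, BEND5 from −0.96 to 2.68 and CENPE from −0.147 to 0.115. With library size only, ING3 was at 0.0247 and CENPE at 0.0240. MRPL1 was at −0.0540 with GC correction and at −0.0520 with GC correction and block. BEND5 was at −0.24 with voom and −0.42 with a prior count of 2. CENPE was at 0.0110 with voom and at 0.00699 with at least 10 counts in every library. BEND5 was at 0 in every SK-OV-3 DMSO library. With library size only, negative calls came to 2 of endoplasmic reticulum, 3 of NRF2, 3 of YAP, 7 of mitosis, 3 of proteasome and 3 of ribosome biogenesis genes. The median interaction crossed 0 between settings for cytosolic ribosomal proteins (−0.02 to 0.13), tRNA synthetases (−0.02 to 0.06), respiratory genes (−0.07 to 0.06) and mitochondrial ribosomal proteins (−0.04 to 0.07). The median SE of 0.177 limits what 3 libraries a group can show for small differences.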
